A study of Saccharomyces cerevisiae with 12 samples.

Results

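The mitochondrial ribosomal proteins described here are those encoded in the nucleus. They are made by cytosolic ribosomes, carried into the mitochondrion and assembled there with mitochondrially encoded rRNA. The resulting ribosome has a large and a small subunit, and in budding yeast it makes a handful of respiratory chain and ATP synthase subunits that the cell needs to respire. Some of its proteins have counterparts in every kind of ribosome, some only in bacterial ribosomes, and others exist only in mitochondria. The genes described here are those whose standard name begins with MRPL, MRPS or RSM followed by a number and whose mRNA averaged at least 5 RPKM (read density scaled to coding length and library depth) over the mRNA libraries. This gave 54 of the 6159 genes in the table, 34 named MRPL for the large subunit and 20 named MRPS or RSM for the small subunit. All 54 passed the filter, so none lay outside it. The member nearest to it was MRPL4 with a mean of 40.8 RPKM, followed by RSM22 with 71.8 RPKM and MRPL40 with 111 RPKM. By the family names in the RefSeq gene table, 24 members belong to universal ribosomal protein families, 9 to families shared with bacteria and 20 to mitochondria-specific families, and RSM22 has none.

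The data are ribosome footprints and poly(A) mRNA from SK1 budding yeast in mitotic exponential growth, with 2 libraries of each kind per genotype. DED1 and its paralog DBP1 encode DEAD-box RNA helicases that act in translation initiation. The genotypes were 2xDbp1 (4 copies of DBP1 under DED1 regulatory regions), Dbp1 (DBP1 under those regions) and Ded1 (DED1 under them). Cells of all 3 genotypes grew in YEPD at 30 °C, were taken at OD 0.6 and had 1 minute with 100 µM cycloheximide before harvest, so every footprint comes from drug-treated cells. The labels do not say whether replicates were separate cultures, and p-values measure only the spread between these libraries.

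The helicase genes followed their labels. DBP1 footprints were at 921 and 943 RPKM in 2xDbp1, at 573 and 571 RPKM in Dbp1 and at 8.14 and 7.36 RPKM in Ded1. DED1 footprints were at 3.23 and 2.41 RPKM in 2xDbp1, at 2.97 and 4.51 RPKM in Dbp1 and at 710 and 730 RPKM in Ded1. The libraries held 6.0 to 8.5 M (mRNA) and 8.7 to 13.11 M (footprints) reads, inferred from the steps between low values. At that depth every member was well covered, with at least 236 reads in each mRNA library and at least 271 in each footprint library. Genes of the general stress and post-diauxic state differed between the cultures. Over 20 such markers, summed mRNA was 574 and 572 RPKM in 2xDbp1, 1550 and 1023 RPKM in Dbp1, and 396 and 425 RPKM in Ded1. In bulk cultures, more cells in that state and more of these RNAs per cell cannot be told apart. Over 12 meiotic and sporulation markers, the summed mRNA stayed between 37.1 and 63.0 RPKM in every library.

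Over the 54 members together, footprints lay closer together than mRNA, and this held more for the large than for the small subunit. In Ded1, the mean mRNA level of the 54 genes ran over a 12.5-fold range with a log2 standard deviation of 0.75, and 36 of 54 lay within 1.5-fold of their median. The footprint levels of the same genes ran over an 8.50-fold range with a log2 standard deviation of 0.44. Of the 54, 50 lay within 1.5-fold of their median. In the large subunit, all 34 footprint levels lay within 1.5-fold of the median of 149 RPKM, between 102 and 213 RPKM, whereas the mRNA levels ran from 40.0 to 499 RPKM with 23 of 34 in that window. Some other sets also lay closer together in footprints. Within 1.5-fold of their own median in Ded1 lay 70.8% of 24 mitochondrial ribosomal protein genes with other names in footprints and 58.3% in mRNA. The shares were 68.6% in footprints and 37.1% in mRNA for 35 genes of respiratory chain and ATP synthase subunits, and 46.0% and 32.5% for cytosolic ribosomal protein genes. Over all genes tested they were 20.7% and 23.2%. For mitochondrial genes of other roles the direction was mixed. Footprint and mRNA shares were 31.25% and 46.67% for translational activators and 16.67% and 50% for transcription and RNA turnover. They were 62.5% and 56.25% for aminoacyl-tRNA synthesis, 40% and 33.33% for translation factors, and 100% and 75% for 4 ribosome receptors and insertases. They were equal for ribosome assembly genes (37.5%) and regulators (33.33%). These shares are descriptions of sets of different breadth.

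The narrow footprint range of the large subunit was present in the other genotypes as well. Within 1.5-fold of their median lay the footprint levels of 32 of 34 large-subunit genes in 2xDbp1, of 32 of 34 in Dbp1 and of 34 of 34 in Ded1. The matching mRNA counts were 21 of 34 in 2xDbp1, 21 of 34 in Dbp1 and 23 of 34 in Ded1. In single libraries, the highest large-subunit footprint level was 2.51- to 2.67-fold the lowest in 2xDbp1, 2.46- to 2.79-fold in Dbp1 and 2.12- to 2.20-fold in Ded1. The large-subunit mRNA spread rested in part on 1 gene. Without MRPL4, an alternative chosen after seeing the data, the mRNA range in Ded1 was 4.63-fold, still wider than the 2.09-fold footprint range.

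**Figure D1:**
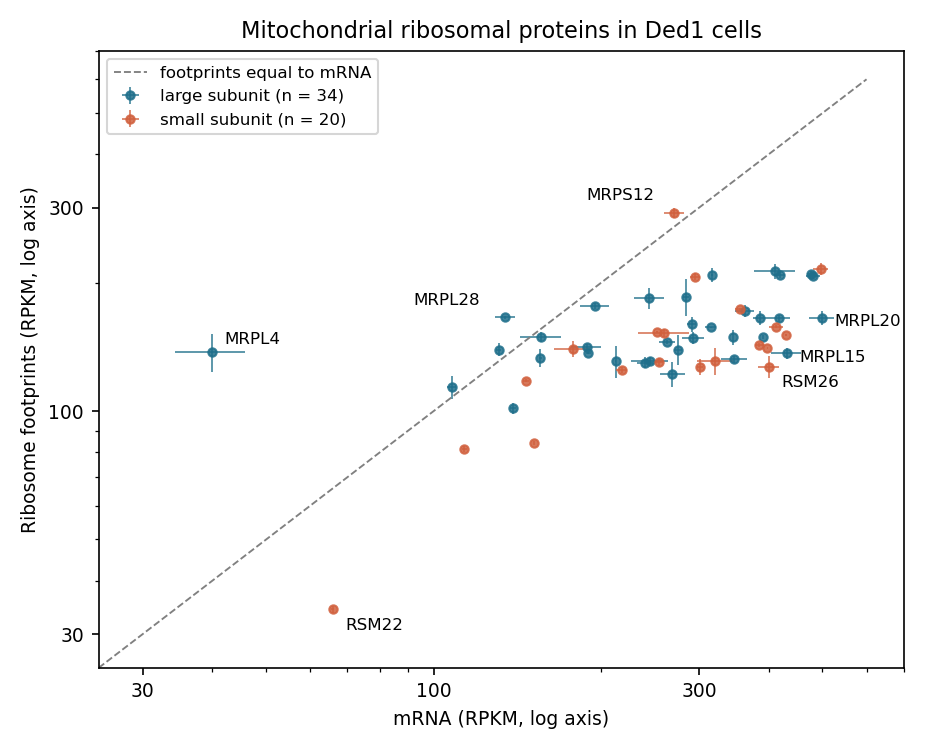
Mean mRNA (x axis, RPKM, log scale) against mean footprints (y axis, RPKM, log scale) of the 54 members in Ded1 cells; bars run between the 2 libraries, colours mark the subunits and the dashed line marks equal values. Most members lie below the line in a band near the median of 147 RPKM of footprints. MRPL4 lies above the line at low mRNA and RSM22 below the band.

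The small subunit was less even. Its 20 genes had a footprint range of 7.95-fold in 2xDbp1, 9.07-fold in Dbp1 and 8.50-fold in Ded1. The mRNA range was 7.03-fold in 2xDbp1, 6.60-fold in Dbp1 and 7.53-fold in Ded1, so footprints ran wider than mRNA in each. Within 1.5-fold of the median lay 14 of 20 footprint levels in 2xDbp1, 14 of 20 in Dbp1 and 15 of 20 in Ded1. The matching mRNA counts were 13 of 20, 14 of 20 and 13 of 20. Both ends of the footprint range were single genes. MRPS12, whose bacterial counterpart lies at the decoding centre, had the highest footprint level of all members in both Ded1 libraries, with 280 and 285 RPKM in 2xDbp1, 305 and 319 RPKM in Dbp1, and 283 and 299.8 RPKM in Ded1. In 2xDbp1 and Dbp1, its libraries overlap with those of the large-subunit gene MRPL39, at 300.2 and 266 RPKM in 2xDbp1 and 321 and 259 RPKM in Dbp1. RSM22, which encodes a methyltransferase-like protein of the small subunit rather than a member of a ribosomal protein family, had the lowest, with 36.9 and 34.2 RPKM in 2xDbp1, 37.1 and 31.7 RPKM in Dbp1, and 35.0 and 33.7 RPKM in Ded1. In all 3 genotypes, both libraries of RSM22 lay far below every other member. The next lowest in Ded1 were RSM23, a mitochondria-specific GTP-binding protein of the family mS29, with 81.6 ± 1.8 RPKM, and MRPS5 of the family uS5m with 84.3 ± 1.2 RPKM (SD, n = 2 each). Without RSM22 the small-subunit footprint range in Ded1 was 3.58-fold, beside an mRNA range of 4.37-fold.

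**Figure D2:**
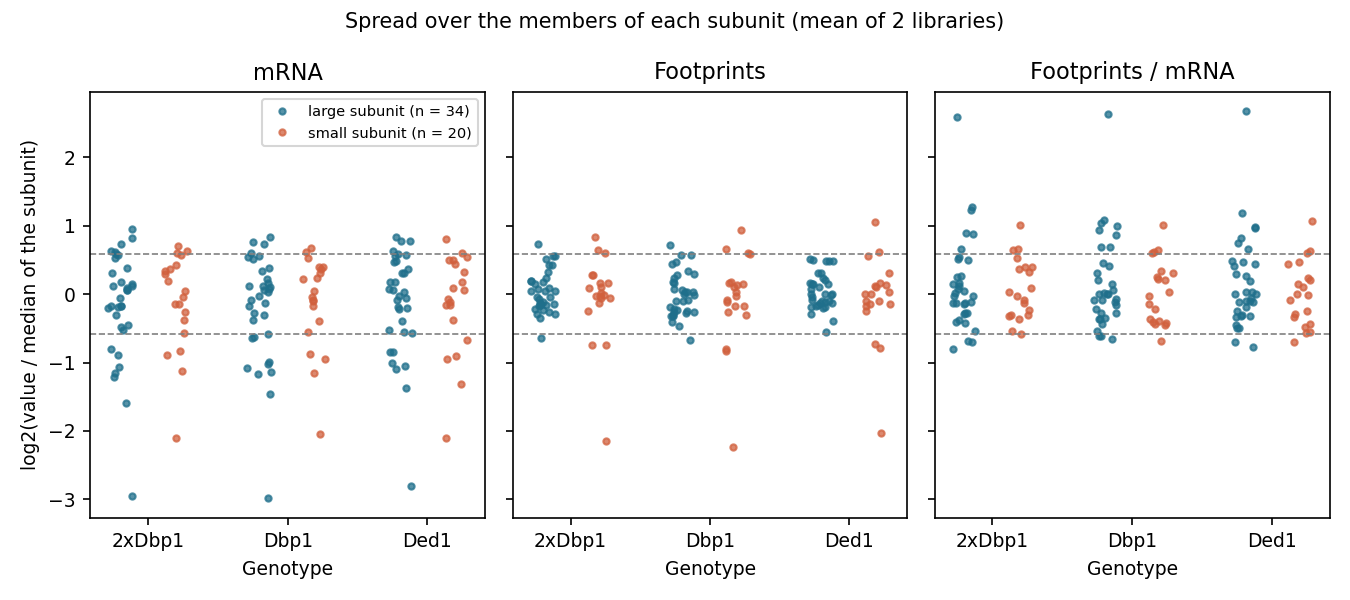
Level of each member relative to the median of its subunit (y axis, log2 scale) for mRNA, footprints and their ratio, by genotype (x axis); each point is the mean of 2 libraries and the dashed lines mark 1.5-fold above and below the median. Large-subunit footprints form the tightest group in all 3 genotypes, the lowest mRNA point and highest ratio point of the large subunit are MRPL4, and the lowest small-subunit point in mRNA and footprints is RSM22.

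Footprints divided by mRNA give a relative translation ratio, in which 1 means only that a gene takes an equal share of both library types after length scaling. The median ratio over the members was 0.543 and 0.542 in 2xDbp1, 0.556 and 0.524 in Dbp1, and 0.523 and 0.527 in Ded1. Over all 4785 genes with both measures, the medians ran from 0.640 to 0.674 in the 6 library pairs, so the members lay below the middle of the genome in every pair. In Ded1 the median was 0.714 for the 24 mitochondrial ribosomal protein genes with other names, above the 0.663 of all genes. It was 0.694 for cytosolic ribosomal proteins and 0.869 for the respiratory chain and ATP synthase. Of 54 members, 5 had a mean ratio above 1 in Ded1: MRPL4, MRPL28, MRPS12, MRPL3 and MRPL40.

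MRPL4, a large-subunit protein of the family uL29m, whose bacterial counterpart sits near the exit of the peptide tunnel, stood apart from all other members. Its mRNA was at 44.9 and 38.1 RPKM in 2xDbp1, at 43.7 and 37.8 RPKM in Dbp1, and at 45.8 and 34.3 RPKM in Ded1. Its footprints were at 140 and 137 RPKM in 2xDbp1, at 154 and 130 RPKM in Dbp1, and at 151 and 123 RPKM in Ded1. The member with the least mRNA thus ranked 35 of 54 in footprints in Ded1, within 1.5-fold of the large-subunit median. The ratio was 3.11 and 3.598 in 2xDbp1, 3.52 and 3.45 in Dbp1, and 3.31 and 3.599 in Ded1. By its mean over the 6 library pairs, MRPL4 lay above 97.9% of all genes. The log2 difference in translational efficiency was -0.042 ± 0.22 between 2xDbp1 and Ded1 and 0.015 ± 0.22 between Dbp1 and Ded1 (standard errors), neither past the threshold.

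The next highest ratio in Ded1 belonged to MRPL28, a mitochondria-specific protein of the family mL40, with 1.47 and 1.22 in 2xDbp1, 1.14 and 1.16 in Dbp1, and 1.195 and 1.28 in Ded1. MRPS12 came next in Ded1, with 0.948 and 1.08 in 2xDbp1, 1.04 and 1.03 in Dbp1, and 1.01 and 1.16 in Ded1. In each genotype both MRPL28 values lay above both MRPS12 values, whereas in Ded1 the ratios of MRPS12 overlap with those of MRPL3 (mL44), at 1.09 and 1.04, and MRPL40 (uL24m), at 1.14 and 0.973, so the order of these 3 genes is not resolved. At the other end, RSM26 (family mS42), MRPL15 (mL57) and MRPL20 (mL58), all mitochondria-specific, had ratios of 0.317 ± 0.007, 0.317 ± 0.015 and 0.333 ± 0.042 in Ded1 (SD, n = 2 each), which do not differ beyond their spread. These 3 genes had abundant mRNA. MRPL20 had 525 and 473 RPKM of mRNA in Ded1, which with the 481 and 512 RPKM of MRPS16 and the 496 and 467 RPKM of MRPL39 was the most of all members by mean, in an order the libraries do not resolve. It had footprints of 159 and 171 RPKM, close to the footprint level of MRPL28, which had only 140 and 129 RPKM of mRNA. MRPS16 (bS16m) and MRPL39 (bL33m) also had high footprints in Ded1, 216 ± 10 and 208 ± 6 RPKM, as did MRPL37 (mL54), with 213 ± 13 RPKM (SD, n = 2 each).

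Across the 54 genes, mRNA and footprints were correlated, with a Pearson's r of 0.61 for 2xDbp1, 0.59 for Dbp1 and 0.59 for Ded1. The ratio, of which mRNA is the denominator, was correlated with mRNA at -0.80 in 2xDbp1, -0.76 in Dbp1 and -0.81 in Ded1. Coding length was correlated with footprints at -0.74 in 2xDbp1, -0.76 in Dbp1 and -0.74 in Ded1, and with mRNA at -0.53, -0.54 and -0.55 in the same order of genotypes. The ratio was nearly flat against length, at 0.11 in 2xDbp1, 0.055 in Dbp1 and 0.15 in Ded1. These values are descriptions across genes, which share libraries and are no independent replicates, and both measures are divided by length. The shortest member, MRPL39, has 213 nt of coding sequence and the longest, RSM22, has 1887 nt. MRPL19 and MRPL51 overlap another annotated gene, and since the use of strand in counting is not given in the sources used here, their levels are uncertain.

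The median footprint levels of the family classes lay closer together than their median mRNA levels. In Ded1 the median footprint level was 142 RPKM over 24 universal, 165 RPKM over 9 bacterial-type and 138 RPKM over 20 mitochondria-specific genes. Their mRNA medians were 269, 387 and 294 RPKM, and their ratios 0.551, 0.432 and 0.546. All 9 bacterial-type genes lay within 1.5-fold of their median in footprints, from 131 to 216 RPKM.

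Between genotypes, the median over the members was higher with DBP1 than with DED1 in both measures. The median mRNA level was 331 and 302 RPKM in 2xDbp1, 342 and 314 RPKM in Dbp1, and 285 and 280 RPKM in Ded1. The median footprint level was 169 and 159 RPKM in 2xDbp1, 177 and 158 RPKM in Dbp1, and 151 and 145 RPKM in Ded1. Neither measure had overlap with Ded1 at the level of these medians. Replicates inside the DBP1 genotypes also differed. In mRNA, 53 of 54 members were higher in replicate 1 than in replicate 2 of 2xDbp1, 45 of 54 in Dbp1 and 42 of 54 in Ded1, with median log2 differences of 0.16, 0.14 and 0.052. In footprints, 45 of 54 members were higher in replicate 1 of 2xDbp1, 52 of 54 in Dbp1 and 30 of 54 in Ded1, with median log2 differences of 0.086, 0.18 and 0.024. Over all genes, those 6 medians lay between -0.062 and 0.037.

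**Figure D3:**
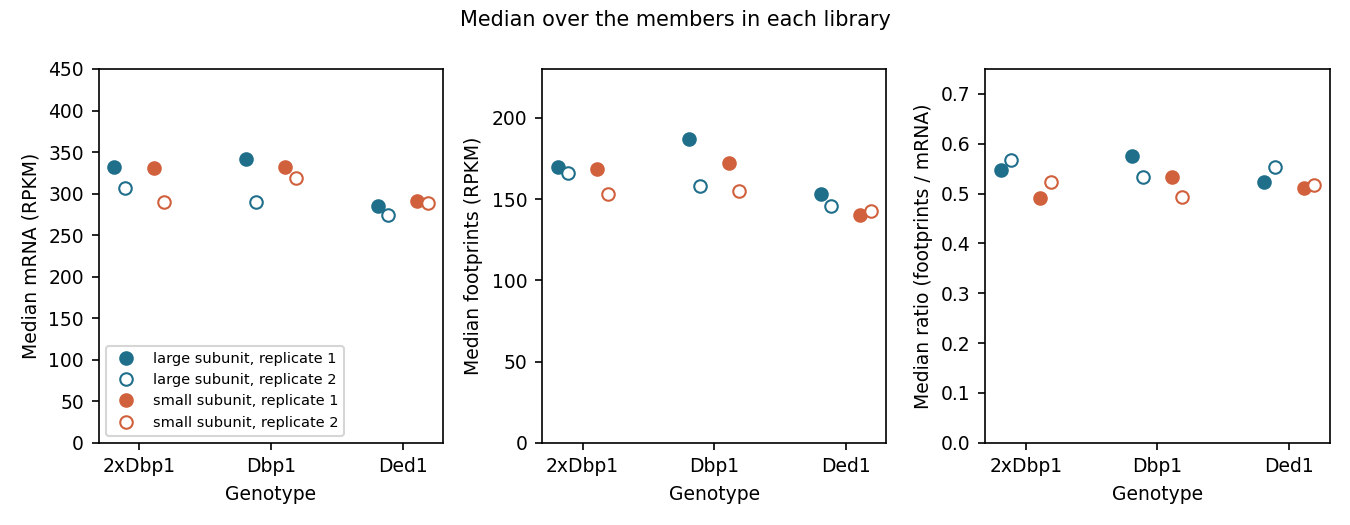
Median mRNA (RPKM), footprints (RPKM) and ratio over the members of each subunit (y axes) in each library, by genotype (x axis); filled points are replicate 1 and open points replicate 2. The Ded1 medians are the lowest in both subunits, except that the small-subunit mRNA median of 289.8 RPKM in 2xDbp1 replicate 2 lies just under the 291 RPKM of Ded1 replicate 1, with replicate 1 above replicate 2 in 2xDbp1 and Dbp1, while the ratio medians stay between 0.492 and 0.576.

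In Dbp1 against Ded1, the members' mRNA log2 fold changes ran from -0.045 to 0.38 with a median of 0.16, beside a median of 0.038 over the 5198 genes tested. The median was 0.14 in the large and 0.19 in the small subunit, and 51 of 54 members had a value above 0, beside 57.0% of all genes. Both Dbp1 libraries lay above both Ded1 libraries for 36 of 54 members, beside 30.6% of all genes, and both lay below for 0 members, beside 21% of all genes. In a limma fit over all genes with Benjamini-Hochberg adjustment at 0.05, no member was called, beside 1.29% of genes called higher and 0.231% called lower. At an unadjusted p under 0.05, 10 members were higher and 0 lower, against 12.5% and 7.08% of all genes. That count of members under 0.05 was 2 when Dbp1 replicate 1 was left out and 16 when Dbp1 replicate 2 was. Leaving out Ded1 replicate 1 gave 3, leaving out Ded1 replicate 2 gave 2, and rescaled libraries gave 5. The lowest p-values belonged to MRPS8 (family uS8m), RSM28 (mS46) and RSM23 (mS29). MRPS8 mRNA was at 360 and 304 RPKM in Dbp1 and at 259 and 249 RPKM in Ded1, a log2 difference of 0.38 ± 0.11 (SE, limma adjusted p = 0.139). RSM28 mRNA was at 408 and 354 RPKM in Dbp1 and at 305 and 297 RPKM in Ded1, and RSM23 mRNA at 160 and 129 RPKM in Dbp1 and at 113 and 115 RPKM in Ded1. For all 3 genes the libraries of the genotypes do not overlap, and Dbp1 replicate 1 is the higher one. Without that library, the members' median log2 fold change was 0.10.

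Footprints of 1 member rose in Dbp1 against Ded1. RSM19 (YNR037C) encodes a small-subunit protein of the family uS19m, found in every kind of ribosome. Its footprints were at 256 and 236 RPKM in Dbp1 and at 175 and 172 RPKM in Ded1. In 2xDbp1 they were at 186 and 196 RPKM, between those 2 genotypes and not overlapping with either. The log2 difference of Dbp1 against Ded1 was 0.50 ± 0.08 (SE, limma adjusted p = 0.0314). RSM19 mRNA was at 408 and 421 RPKM in Dbp1 and at 362 and 348 RPKM in Ded1, a log2 difference of 0.22 ± 0.10 that did not pass (limma adjusted p = 0.285). The RSM19 ratio was 0.627 and 0.562 in Dbp1 and 0.482 and 0.493 in Ded1, and the difference in translational efficiency of 0.28 ± 0.13 did not pass either (limma adjusted p = 1.00). The call was narrow. It was lost when either Ded1 library (adjusted p of 0.135 and 0.117), Dbp1 replicate 1 (0.120) or either 2xDbp1 library (0.0792 and 0.0786) was left out, and when those 2 genotypes were fitted alone (0.0794), with log2 differences between 0.45 and 0.52.

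The rest of the footprint changes in Dbp1 had the same sign and did not pass. Member log2 fold changes had a median of 0.19, beside 0.00435 over the 4830 genes tested, with 0.18 in the large and 0.22 in the small subunit, and 53 of 54 were above 0, beside 50.8% of all genes. RSM22 was the exception, with libraries at 37.1 and 31.7 RPKM in Dbp1 and at 35.0 and 33.7 RPKM in Ded1. RSM19 was the only member called, beside 2.42% of genes called higher and 0.89% called lower. Libraries did not overlap for 37 of 54 members, all higher in Dbp1, beside 25.1% of all genes higher and 26.1% lower, and 21 members were higher and 0 lower at an unadjusted p under 0.05, against 12% and 11.5% of all genes. The 21 became 6 when Dbp1 replicate 1 was left out and 33 when Dbp1 replicate 2 was, and leaving out Ded1 replicate 1 gave 6 and Ded1 replicate 2 gave 10. MRPL8 (bL17m) footprints were at 225 and 218 RPKM in Dbp1 and at 174 and 179 RPKM in Ded1, a log2 difference of 0.33 ± 0.08 (SE, limma adjusted p = 0.0772). MRPL39 footprints were at 321 and 259 RPKM in Dbp1 and at 204 and 212 RPKM in Ded1, a log2 difference of 0.47 ± 0.12 (SE, limma adjusted p = 0.0897). RSM7 (uS7m) footprints were at 177 and 174 RPKM in Dbp1 and at 134 and 146 RPKM in Ded1 (limma adjusted p = 0.111). These genes do not overlap between the genotypes, but for MRPL39 the Dbp1 libraries are far apart. One library decides much here. Without Dbp1 replicate 1 the median was 0.10 and no member was called, and without Dbp1 replicate 2 the median was 0.28 and 4 members were called, MRPL10, MRPL31 (mL60), MRPL39 and RSM19, named here after their values were seen. Dbp1 replicate 1 was also the library with the most footprints on the 20 stress markers, 2134 RPKM in sum, beside 1504 RPKM in Dbp1 replicate 2, 1019 and 947 RPKM in 2xDbp1, and 624 and 621 RPKM in Ded1. The part of that state in the members' levels was not tested.

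**Figure D4:**
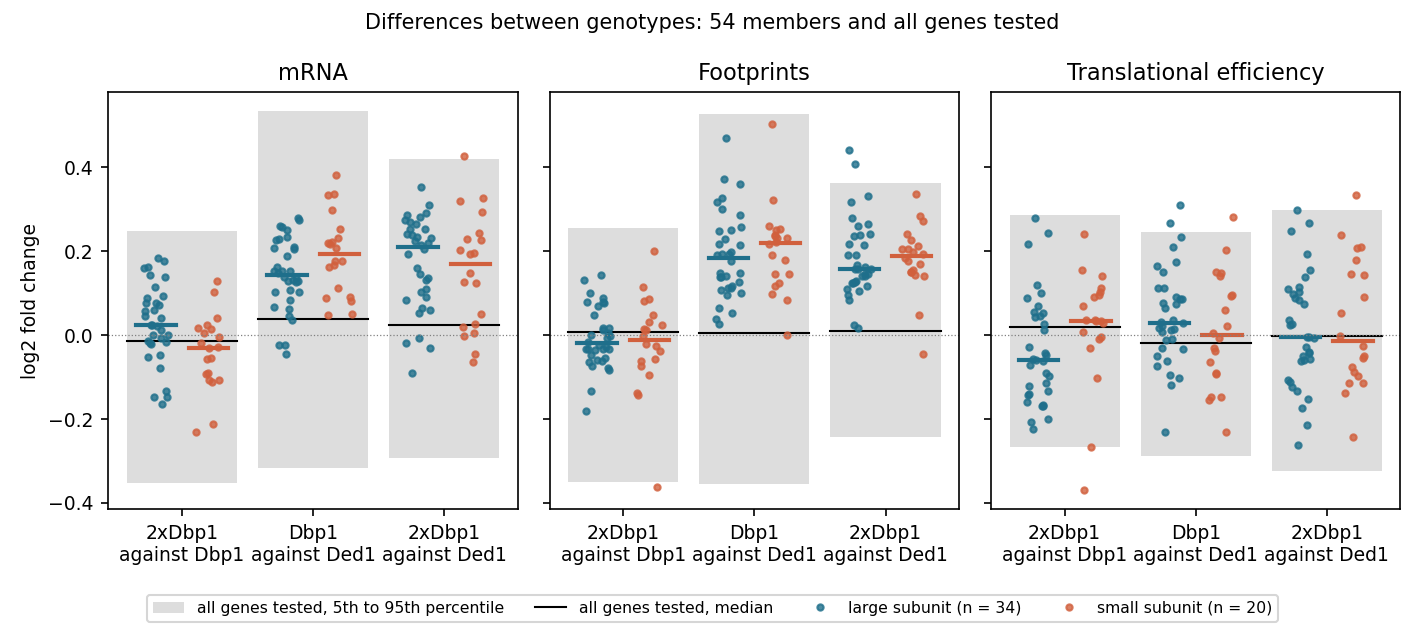
log2 fold changes of the 54 members (points; coloured bars are the medians of each subunit) in mRNA, footprints and translational efficiency for the 3 genotype comparisons, with the 5th to 95th percentile (grey) and median (black) of all genes tested. Both comparisons with Ded1 have members mostly above 0 in mRNA and footprints, mostly inside the grey range, and points on both sides of 0 elsewhere.

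In 2xDbp1 against Ded1, which shares the Ded1 libraries with the comparison above, the mRNA log2 fold changes had a median of 0.19, beside 0.025 over all genes, with 0.21 in the large and 0.17 in the small subunit. They were above 0 for 47 of 54 members, beside 54.8% of all genes. Libraries did not overlap for 31 members, all higher in 2xDbp1, beside 30.9% of all genes higher and 21.4% lower. No member was called by limma, beside 0.0385% of genes called higher and 0.0385% called lower, and 11 members were higher and 0 lower at an unadjusted p under 0.05, against 10.2% and 4.87% of all genes. The 11 became 1 without 2xDbp1 replicate 1, 17 without 2xDbp1 replicate 2, 18 without either Dbp1 library, 6 without Ded1 replicate 1 and 2 without Ded1 replicate 2. RSM7 mRNA was at 248 and 231 RPKM in 2xDbp1 and at 165 and 191 RPKM in Ded1, a log2 difference of 0.43 ± 0.11 (SE, limma adjusted p = 0.219). MRPL17 (mL46) mRNA was at 243 and 228 RPKM in 2xDbp1 and at 192 and 188 RPKM in Ded1, and MRPL25 (mL59) mRNA at 265 and 254 RPKM in 2xDbp1 and at 213 and 212 RPKM in Ded1. In each of these 3 genes both 2xDbp1 libraries are the higher ones. Leaving out 2xDbp1 replicate 1 took the members' median to 0.10.

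Footprints in 2xDbp1 against Ded1 had a median log2 fold change of 0.17, beside 0.00999 over all genes, with 0.16 in the large and 0.19 in the small subunit, and MRPS12 alone was below 0, at -0.045. Libraries did not overlap for 47 of 54 members, all higher in 2xDbp1, beside 25% of all genes higher and 19.7% lower. No member was called by limma, beside 0.0207% of genes called higher and 0.0414% called lower, and 15 members were higher and 0 lower at an unadjusted p under 0.05, against 6.09% and 3.21% of all genes. The 15 became 1 without 2xDbp1 replicate 1, 8 without 2xDbp1 replicate 2, 2 without Ded1 replicate 1, 5 without Ded1 replicate 2 and 6 with rescaled libraries. MRPL39 footprints were at 300.2 and 266 RPKM in 2xDbp1 and at 204 and 212 RPKM in Ded1, a log2 difference of 0.44 ± 0.12 (SE, limma adjusted p = 0.350). MRPL10 (uL15m) footprints were at 213 and 212 RPKM in 2xDbp1 and at 153 and 167 RPKM in Ded1, a difference of 0.41 ± 0.11 (SE, limma adjusted p = 0.356). RSM25 (mS23) footprints were at 155 and 147 RPKM in 2xDbp1 and at 123 and 127 RPKM in Ded1 (limma adjusted p = 0.371). The summed stress markers, given above, lay closer to Ded1 in 2xDbp1 than in Dbp1, and their part in these values was not tested.

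**Figure D5:**
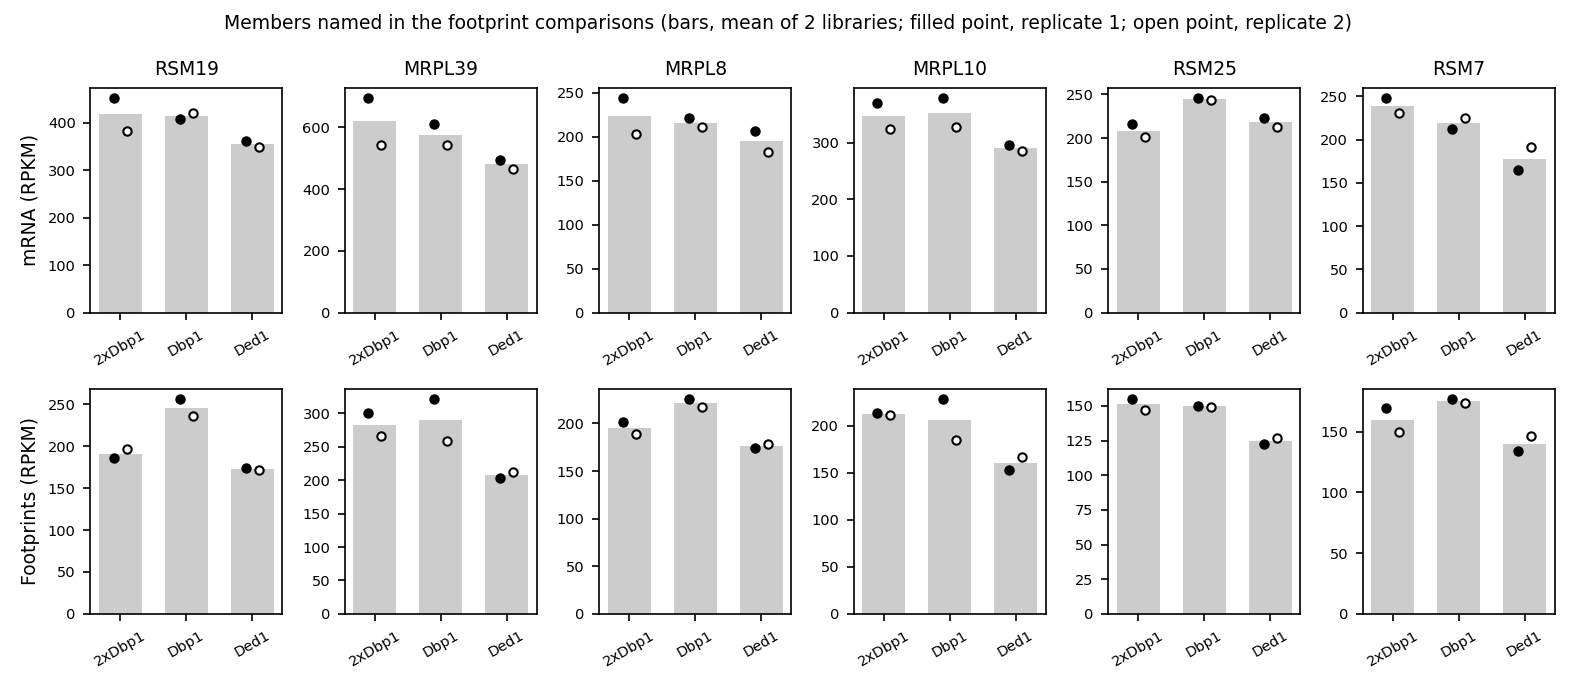
mRNA (upper row, RPKM) and footprints (lower row, RPKM) of 6 members named in the footprint comparisons, by genotype (x axis); bars are means of 2 libraries, filled points replicate 1 and open points replicate 2. RSM19 footprints are at 256 and 236 RPKM in Dbp1 and between 172 and 196 RPKM in the other libraries, while its mRNA is at 384 to 452 RPKM in both DBP1 genotypes.

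No member passed between the 2 DBP1 genotypes. In 2xDbp1 against Dbp1, the members' median log2 fold change was 0.0032 in mRNA and -0.018 in footprints, beside -0.013 and 0.00767 over all genes. Members higher without overlap numbered 4 in mRNA and 0 in footprints, beside 18.2% and 24% of all genes, and members lower without overlap numbered 6 in each, beside 21.3% and 18.2%. No member was called by limma, beside 0% of genes higher and 0.0192% lower in mRNA, and 0% in both directions in footprints, and 1 member was lower in each measure at an unadjusted p under 0.05, against 4.39% and 4.45% of all genes. None was higher at that level, against 3.39% in mRNA and 4.62% in footprints. RSM25 had the lowest p in mRNA, with 216 and 200.8 RPKM in 2xDbp1 and 246 and 244 RPKM in Dbp1, a log2 difference of -0.23 ± 0.09 (SE, limma adjusted p = 0.611). RSM19 had the lowest p in footprints, with a difference of -0.36 ± 0.08 (SE, limma adjusted p = 0.384). MRPL8 and MRPS12 followed in footprints, with differences of -0.18 ± 0.08 and -0.14 ± 0.08 that did not pass. The sign of the mRNA and of the footprint median turned when single 2xDbp1 or Dbp1 libraries were left out, over ranges of -0.10 to 0.10 and -0.093 to 0.068.

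Translational efficiency, the footprint change relative to the mRNA change, was near 0 for the members in each comparison. The median log2 difference was 0.023 in Dbp1 against Ded1, -0.0048 in 2xDbp1 against Ded1 and 0.00084 in 2xDbp1 against Dbp1, beside -0.019, -0.0026 and 0.020 over all 4785 genes. In the large subunit it was 0.030, -0.0048 and -0.058 in the same order of comparisons, and in the small subunit -0.00045, -0.014 and 0.034. Members higher without overlap of the library pairs numbered 15, 14 and 8, beside 13.4%, 19.7% and 24.9% of all genes, and members lower numbered 11, 11 and 15, beside 21.8%, 23.6% and 17.8%. No member was called by limma in any of the 3, beside 0.0209%, 0.0209% and 0% of genes called higher and 0.0209%, 0.0209% and 0% called lower. At an unadjusted p under 0.05 there were 0 members in Dbp1 against Ded1, 1 higher in 2xDbp1 against Ded1, and 1 higher and 1 lower in 2xDbp1 against Dbp1, beside 0.857%, 2.03% and 1.92% of all genes higher and 2.3%, 3.09% and 1.67% lower in the 3 comparisons. With the paired libraries as a replicate block, still no member was called, and over all genes 5 were called in 2xDbp1 against Ded1, against 2 without it.

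RSM25 had the lowest p in translational efficiency in 2xDbp1 against Ded1. Its ratio was 0.715 and 0.734 in 2xDbp1 and 0.551 and 0.597 in Ded1, with 0.611 and 0.614 in Dbp1. The 2xDbp1 libraries lie above all others, and the log2 difference against Ded1 was 0.33 ± 0.10 (SE, limma adjusted p = 0.909). MRPL17 lay the other way, with ratios of 0.610 and 0.633 in 2xDbp1 and 0.719 and 0.724 in Ded1, a difference of -0.21 ± 0.10 (SE, limma adjusted p = 0.973). MRPL27 (mL41) had ratios of 0.547 and 0.580 in 2xDbp1, 0.590 and 0.528 in Dbp1, and 0.477 and 0.471 in Ded1, and MRPS16 had 0.493 and 0.535 in 2xDbp1, 0.526 and 0.477 in Dbp1, and 0.435 and 0.435 in Ded1. In both genes the Ded1 libraries are the lowest, but no difference passed. In 2xDbp1 against Dbp1, RSM19, RSM25 and RSM7 had the lowest p-values, with log2 differences of -0.37 ± 0.13, 0.24 ± 0.10 and -0.27 ± 0.14 (SE), all with a limma adjusted p of 0.999.

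Mitochondrial ribosomal proteins that carry other gene names had like median differences. Over 24 such genes, among them MRP49, IMG1 and IMG2, the median log2 fold change of mRNA was 0.17 in Dbp1 against Ded1 and 0.21 in 2xDbp1 against Ded1, and that of footprints 0.20 and 0.14. None passed in limma, while 3 and 5 in mRNA and 6 and 5 in footprints were higher at an unadjusted p under 0.05. Of all genes, 12.5% and 10.2% in mRNA and 12% and 6.09% in footprints were, so the 3 of 24 in mRNA are at that background. IMG1 footprints were at 268 and 261 RPKM in Dbp1 and at 220 and 211 RPKM in Ded1, a log2 difference of 0.29 ± 0.08 (SE, limma adjusted p = 0.0885). MRP49 mRNA was at 345 and 357 RPKM in Dbp1 and at 271 and 289 RPKM in Ded1 (limma adjusted p = 0.139).

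Of the wider mitochondrial translation machinery, 1 gene passed, in footprints of Dbp1 against Ded1, where 2.42% of all genes were called higher. MSK1, the mitochondrial lysyl-tRNA synthetase, had footprints of 43.5 and 39.5 RPKM in Dbp1 and of 26.1 and 25.9 RPKM in Ded1, a log2 difference of 0.65 ± 0.10 (SE, limma adjusted p = 0.0249). It was the only one of 16 genes of mitochondrial aminoacyl-tRNA synthesis to pass, and 6 of the 16 were higher at an unadjusted p under 0.05. Whether the MSK1 call held with single libraries left out was not examined. In Dbp1 against Ded1, the median footprint difference was 0.22 over these 16 genes, 0.26 over 10 translation factors and 0.20 over 16 translational activators. It was 0.018 over 8 assembly and rRNA modification genes, 0.084 over 4 ribosome receptors and insertases, 0.046 over 6 genes of mitochondrial transcription and RNA turnover, and 0.12 over 6 regulators. None of those passed in limma, and 5 translation factors, 3 activators and 2 regulators were higher at an unadjusted p under 0.05, with 0 in the other 3 groups, beside 12% of all genes. AIM23, a mitochondrial initiation factor, had footprints of 37.1 and 30.7 RPKM in Dbp1 and of 25.4 and 26.0 RPKM in Ded1 (limma adjusted p = 0.103). PET111, the activator of COX2 translation, had mRNA of 29.6 and 25.4 RPKM in Dbp1 and of 20.2 and 18.8 RPKM in Ded1, a log2 difference of 0.47 ± 0.12 (SE, limma adjusted p = 0.102). PUF3, an RNA-binding protein whose known targets include mRNAs of this ribosome, had mRNA of 18.9 and 16.2 RPKM in Dbp1 and of 16.0 and 12.8 RPKM in Ded1, which did not pass, and was named for that role after its values were seen. HAP4, the activating subunit of the CCAAT-binding complex, had mRNA of 90.7 and 82.0 RPKM in Dbp1 and of 64.4 and 71.3 RPKM in Ded1 (limma adjusted p = 0.148).

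For scale, footprints of the 35 genes for respiratory chain and ATP synthase subunits had a median log2 fold change of 0.38 in Dbp1 against Ded1 and 0.21 in 2xDbp1 against Ded1, and those of cytosolic ribosomal proteins -0.077 and -0.036. None of either set passed in limma, while 25 and 5 respiratory genes were higher and 3 and 2 of 124 cytosolic ribosomal protein genes were lower at an unadjusted p under 0.05. Of all genes, 12% and 6.09% were higher and 11.5% and 3.21% lower at that level. SDH4, a membrane subunit of succinate dehydrogenase, had mRNA of 229 and 157 RPKM in Dbp1 and of 103 and 103 RPKM in Ded1, a log2 difference of 0.88 ± 0.17 (SE, limma adjusted p = 0.0593), again with Dbp1 replicate 1 the higher one. The 20 stress markers were the set with many calls, with 14 of 18 tested genes past the threshold in footprints and 11 of 20 in mRNA in Dbp1 against Ded1, all higher in Dbp1.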

How the data were processed

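The authors deposited 1 value per gene and library for 6 mRNA and 6 footprint libraries. The labels name no unit, and the deposited values were taken as RPKM, since low values are multiples of 1 step per library once the coding length minus 60 nt is divided out (83.8% to 87.8% of values up to 200 reads came out whole within 0.02 reads). Depth is therefore inferred. Per the labels' protocols, footprint RNA was cut out at 28 to 31 nt and mRNA at 50 nt. The tools were CASAVA, bcl2fastq 2.17 and Bowtie2, per the submitters' processing notes, and the build and the way reads were counted were not given in the sources used here. Names, family names and coding lengths came from the RefSeq table of assembly R64, to which 5637 of 6159 IDs matched. Protein and promoter sequences were not analysed here.

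In R 4.3.3, limma 3.58.1 with a trended empirical Bayes step was run on log2(RPKM + 1), over 6 mRNA libraries, 6 footprint libraries, or all 12 for translational efficiency (genotype by library type). Genes needed a mean of 5 RPKM, and p-values were adjusted over all genes tested. Fold changes on this scale understate those of low genes. The fit was tested on simulated data. Tables and plots were made with Python 3.11.15, pandas 2.3.3, numpy 2.4.6 and matplotlib 3.10.9. Alternatives were other pseudocounts and filters, rescaled libraries, 2 genotypes alone, a replicate block and each library left out.

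Same-numbered mRNA and footprint libraries of a genotype deviated together from their group means (2xDbp1 at a correlation of 0.417, Dbp1 at 0.657, Ded1 at 0.533). They were taken as pairs for the ratios and in the replicate block of translational efficiency. The main translational efficiency fit did not pair them, so its standard errors and p-values leave the pairing out. Members named are those past an adjusted p of 0.05 in a comparison (otherwise the 3 with the lowest p) and the 3 highest and lowest in Ded1 in each measure, some with fewer values. Genes of other lists are those past the threshold or with the lowest p. The members and lists were chosen with earlier results of these data known. Of the listed genes, YMR31, MTG3 and QCR9 did not match a name and were not analysed here.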

Additional observations from a re-analysis of the deposited data

How the results depend on the processing

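Member counts past the threshold stayed at 0 under all alternatives in every comparison but footprints of Dbp1 against Ded1. There the count of 1 was 0 with those 2 genotypes alone and ranged from 0 to 4 with each library left out, where the lone library of a group is assumed to vary like the other groups. All member medians kept their sign in both comparisons with Ded1 in mRNA and footprints. With each library left out, the median ranged from 0.10 to 0.20 (Dbp1 against Ded1) and from 0.10 to 0.28 (2xDbp1 against Ded1) in mRNA, from 0.10 to 0.28 and from 0.13 to 0.21 in footprints, and from -0.0089 to 0.048 and from -0.041 to 0.052 in translational efficiency. In 2xDbp1 against Dbp1 it ranged from -0.10 to 0.10 in mRNA, from -0.093 to 0.068 in footprints and from -0.061 to 0.055 in translational efficiency. With rescaled libraries, the translational efficiency median of Dbp1 against Ded1 was 0.059 and the mRNA median 0.12. The median ratio was 0.523 in rescaled Ded1 libraries, against 0.531. It ranged from 0.523 to 0.527 in Ded1 and from 0.542 to 0.543 in 2xDbp1 with a library left out. The log2 SD over members in Ded1, without MRPL4 and RSM22, was 0.60 in mRNA and 0.33 in footprints. Over all 54 members, the mRNA SD of 0.75 ranged from 0.74 to 0.76 with a library left out. The cause of these shifts was not tested.

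A replicate block between genotypes changed no member call: RSM19 footprints in Dbp1 against Ded1 kept their call at a limma adjusted p of 0.0406. Members at an unadjusted p under 0.05 in mRNA of 2xDbp1 against Ded1 numbered 17 with it and 18 with those genotypes alone, against 11. Over all genes the block gave 116 calls in mRNA (79 without it) and 143 in footprints (160) in Dbp1 against Ded1, 7 (4) and 5 (3) in 2xDbp1 against Ded1, and 4 (1) and 0 (0) in 2xDbp1 against Dbp1. Whether the replicate numbers pair genotypes is not settled. Deviations of 2xDbp1 and Dbp1 correlated at -0.11 in mRNA and -0.071 in footprints. Those of 2xDbp1 and Ded1 correlated at 0.32 and 0.35, and those of Dbp1 and Ded1 at 0.17 and 0.19. Calls over all genes in Dbp1 against Ded1 ranged from 2 to 204 in mRNA and from 22 to 244 in footprints with each library left out, and those 2 genotypes alone gave 8 and 44. In 2xDbp1 against Ded1, the 4 mRNA calls were 10 at a minimum of 20 RPKM, 8 with rescaled libraries, 26 with those genotypes alone and up to 27 with a library left out, and the 3 footprint calls were 12 with those genotypes alone and up to 22. In 2xDbp1 against Dbp1, the 1 mRNA call was 2 at a pseudocount of 5 and up to 6 with a library left out, and the 0 footprint calls were at most 1. With no filter on low values, footprints of Dbp1 against Ded1 gave 96 calls. In translational efficiency, 2xDbp1 against Dbp1 then gave 1 call, against 0.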
